A study of Mus musculus with 6 samples.

Results

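The Ikaros family is a set of 5 genes, Ikzf1 to Ikzf5, which encode the zinc finger proteins Ikaros, Helios, Aiolos, Eos and Pegasus. All 5 were found by symbol among 22098 gene symbols, each as 1 RefSeq transcript (5 of 26531 transcripts), so differences between transcripts of one gene could not be read. RNA was sequenced from proB cells, the earliest committed B-lymphocyte precursors, sorted from bone marrow of C57BL/6 mice aged 6 to 7 weeks. The genotypes were wild type (wt), Ikaros ZnF1-/- (called ZnF1) and Ikaros ZnF4-/- (called ZnF4), mutants of zinc finger 1 or zinc finger 4 of Ikaros itself. Each genotype gave cells of Hardy fraction B and of a pool of C with C' (here fraction C), which are consecutive steps of the Hardy scheme. Each of the 6 combinations is 1 library. The labels give neither the number of animals behind a library nor the way the fingers were removed.

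Ikaros proteins bind DNA through a cluster of zinc fingers near the N terminus and pair with themselves and with each other through a pair of fingers at the C terminus. A zinc finger is a short fold in which cysteine and histidine residues hold a zinc ion. Ikaros is needed for the lymphoid lineages, and Aiolos is known to rise as B cells mature, whereas Helios and Eos are best known from T cells. Mixed pairs can form between members.

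Exons and fingers were read from the GENCODE M21 annotation of mouse build GRCm38, to which the RefSeq identifiers of all 5 deposited transcripts matched. Ikzf1 lies on chromosome 11, plus strand, and its transcript has 8 exons. Finger 1 was encoded in exon 4 (11748311 to 11748571, 261 bases), fingers 2 and 3 in exon 5 (168 bases), finger 4 in exon 6 (11758195 to 11758317, 123 bases) and fingers 5 and 6 in exon 8. All of these are coding exon sequence, and the lengths of exons 4, 5 and 6 are multiples of 3. Ikzf2, Ikzf3 and Ikzf4 had the same distribution of 6 fingers over exons 4, 5, 6 and 8, while Ikzf5 had 4 exons and 5 fingers.

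**Figure D1:**
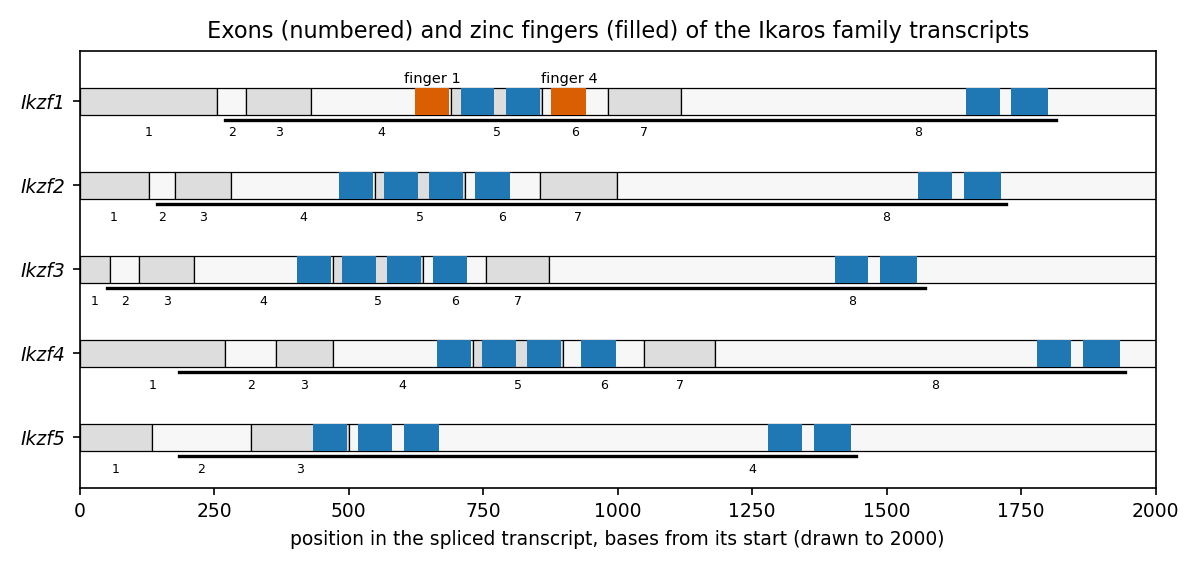
Exons (numbered boxes in alternating shades) and zinc fingers (filled boxes) of the 5 transcripts, by position in the spliced transcript in bases, drawn past the end of each coding sequence; the black line under each transcript marks the coding sequence. The 2 fingers that the mutants are named for, in exons 4 and 6 of Ikzf1, are orange, and the other fingers are blue.

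The coding sequences of fingers 1 and 4 are shown for Ikaros, where the mutants differ, and for Aiolos, the member whose RNA differed most between them. They are written 5′ to 3′ from the first cysteine codon to the last zinc-binding codon, from GRCm38 transcripts, and capitals mark the 4 cysteine or histidine codons placed by the finger pattern.
Ikzf1 finger 1: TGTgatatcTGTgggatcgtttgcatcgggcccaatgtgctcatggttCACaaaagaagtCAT
Ikzf3 finger 1: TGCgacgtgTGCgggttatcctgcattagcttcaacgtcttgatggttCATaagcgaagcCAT
Ikzf1 finger 4: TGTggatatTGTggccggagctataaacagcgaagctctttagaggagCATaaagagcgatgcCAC
Ikzf3 finger 4: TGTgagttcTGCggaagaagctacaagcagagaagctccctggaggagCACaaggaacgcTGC

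Between Ikzf1 and Ikzf3, finger 1 was identical at 40 of 63 bases, finger 2 at 51 of 63 and finger 3 at 47 of 63. Finger 4 was identical at 45 of the 63 bases compared, finger 5 at 51 of 63 and finger 6 at 52 of 69. Finger 1 was thus the finger with the fewest shared bases between the 2 genes. In Ikzf3 finger 4 the last marked codon encodes cysteine, and the Ikzf1 sequence carries a cysteine codon at the same place, just before its final histidine codon.

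Because the deposited value is 1 figure for a whole transcript, it does not resolve an exon. Exon 4 makes up 5.05% and exon 6 2.38% of the deposited Ikzf1 length of 5171 bases, so the loss of either would move the Ikzf1 value by little, and Ikzf1 does not check the genotype labels. Values are RPKM (reads scaled by transcript length and by library size), which can be compared between genes.

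Several facts about the libraries bear on what follows. Cd79a, Pax5 and Ebf1, which mark the B lineage, were measured in all 6 libraries, and the lowest of these 18 values was 73.3 RPKM. The ZnF1 library of fraction C stood apart: its 9 granulocyte and monocyte markers summed to 41150.1 RPKM against 982.1 to 3634.3 in the other 5, its 6 erythroid markers to 3528.5 against 79.8 to 242.7, and its 8 B-lineage markers to 1343.6 against 2048 to 3500.1. Of the B-lineage markers, Cd79a (235.9 RPKM there, 234.8 in wt of fraction C) and Rag1 (109.3 and 94.8) were not below wt. No granulocyte, monocyte or erythroid marker was at 0 in any library. Xist, a female-specific RNA, reached 81.3 and 91.9 RPKM in the wt libraries. It is listed at 0 in all 4 mutant libraries, and the Y-linked gene Eif2s3y showed the reverse (34.4 to 55.1 RPKM in the mutants, 0 in wt), so sex and genotype cannot be told apart in comparisons with wt. In bulk samples, fewer cells of a type and less RNA per cell cannot be told apart.

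Ikzf1 was the most abundant member in every library and Ikzf3 the next. Ikzf5 was low throughout, Ikzf2 did not exceed 1.0 RPKM, and Ikzf4 was at or near the 0.1 RPKM step of the deposited values. Averaged over the libraries, Ikzf1, Ikzf3 and Ikzf5 reached 1 RPKM and entered the tests (3 of 5 members), and the other 2 members are described by level only. Values of 3 libraries are given in the order wt, ZnF1, ZnF4.

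Ikzf1 measured 150.3, 181.5 and 431.6 RPKM among the fraction B libraries and 169.4, 154.1 and 425.1 among those of fraction C. Both ZnF4 libraries lay above all 4 others, and the wt and ZnF1 libraries interleaved. How many other genes are ordered in this way was not counted. Ikzf1 ranked 31st and 33rd of all genes in the ZnF4 libraries of fractions B and C, and between 166th and 216th in the other 4 libraries.

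Ikzf3 measured 61.9, 11.9 and 282.7 RPKM among the fraction B libraries and 51.4, 17.4 and 205.4 among those of fraction C. ZnF1 was lowest and ZnF4 highest in both fractions, and the share of all genes with this order was not counted. From the lowest to the highest library the level differed 23.8-fold, against 2.87-fold for Ikzf1 and 1.74-fold for Ikzf5. Its rank among all genes was 788 and 1254 in wt, 5533 and 4312 in ZnF1, and 65 and 124 in ZnF4.

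Ikzf5, which encodes the most divergent member, measured 4.6, 3.7 and 4.7 RPKM among the fraction B libraries and 4.3, 3.1 and 5.4 among those of fraction C. The ZnF1 value was the lowest of each fraction. Ikzf2 measured 0.8, 0.4 and 0.4 RPKM for fraction B, then 0.4, 1.0 and 0.4 for fraction C. Ikzf4 reached 0.2 RPKM in wt of fraction B and 0.1 in ZnF4 of fraction C, and was listed at 0 in the other 4 libraries. The order of the genotypes for Ikzf2 differed between the fractions, and none can be read for Ikzf4 at this rounding.

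**Figure D2:**
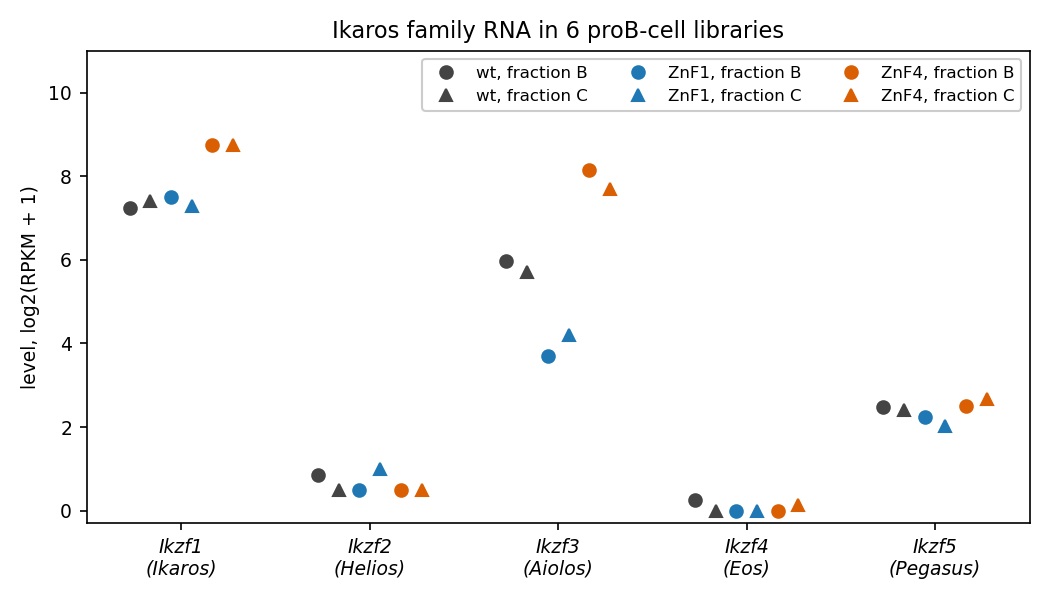
Levels of the 5 members as log2(RPKM + 1), with 1 point for each library; circles are fraction B, triangles fraction C, and colours are genotypes. Ikzf3 spans 11.9 to 282.7 RPKM, lowest in ZnF1 and highest in ZnF4 of each fraction, while Ikzf1 is highest in the 2 ZnF4 libraries.

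Set against wt, the ZnF4 libraries held more RNA of both abundant members in each fraction. Genotype and sex change together in this comparison, so dependence on the fourth finger alone cannot be read from it. On the log2(RPKM + 1) scale Ikzf1 was 2.86-fold higher in fraction B and 2.5-fold higher in fraction C, and Ikzf3 was 4.51-fold and 3.94-fold higher. Ikzf5 was 1.02-fold and 1.21-fold higher, and lower in both when each library was scaled to the same level of a set of B-lineage genes that includes Cd79a, Pax5 and Ebf1. Thus 2 of the 3 tested members were at least 2-fold higher, in a fraction B where 3.7% of 10943 tested genes were and a fraction C where 3.55% were. In both fractions together 2.59% of genes were at least 2-fold higher. With the B-lineage scaling Ikzf1 fell below 2-fold, to log2 0.98 in fraction B and 0.84 in fraction C. For Ikzf3, 48 genes in fraction B and 67 in fraction C were at least as far above wt, itself included, and for Ikzf1 153 and 209.

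A limma model with genotype and fraction as additive terms takes its spread from genotype effects that differ between the fractions, so its p-values describe these libraries and not a population of mice. In it, no member passed at an adjusted p under 0.05. The ZnF4 minus wt estimate was log2 1.42 (SE 0.23, adjusted p = 0.117) for Ikzf1, 2.08 (SE 0.29, adjusted p = 0.101) for Ikzf3 and 0.15 (SE 0.22, adjusted p = 0.742) for Ikzf5, higher than wt in 2 of 2 fractions for each. The limma model called 3 genes in this comparison (0.0274% of those tested), the sex-linked Eif2s3y, Xist and Tsix, and 1930 had an unadjusted p under 0.05. Over the 15 alternatives the adjusted p in limma ran from 0.0052 to 1 for Ikzf1 and from 0.00442 to 0.953 for Ikzf3. Leaving out either one of the ZnF1 libraries, both Ikzf1 and Ikzf3 passed in limma, with an adjusted p of 0.0057 (Ikzf1) and 0.00482 (Ikzf3) without the one of fraction C and 0.00708 and 0.00608 without the one of fraction B. In these fits 31.6% and 30.8% of all tested genes passed.

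The ZnF1 libraries held less Ikzf3 RNA than wt in each fraction, and Ikzf1 lay within 1.21-fold of wt. Here too genotype and sex change together, so dependence on the first finger alone cannot be read. Ikzf3 was 4.88-fold lower in fraction B and 2.85-fold lower in fraction C, and 1 of the 3 tested members was therefore at least 2-fold lower in each, against 2.21% and 7.39% of all tested genes. In both fractions together 0.804% of genes were at least 2-fold lower. In fraction B 15 genes were at least as far below wt as Ikzf3, itself included, and in fraction C 185. Ikzf1 was 1.21-fold higher in fraction B and 1.10-fold lower in fraction C, and its estimate over both fractions turned negative with equal RPKM sums per library. Ikzf5 was 1.19-fold and 1.29-fold lower, but in fraction C higher with the B-lineage scaling.

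In the limma model the ZnF1 minus wt estimate was log2 -1.90 (SE 0.29, adjusted p = 0.389) for Ikzf3, lower in 2 of 2 fractions, 0.07 (SE 0.23, adjusted p = 0.893) for Ikzf1 and -0.31 (SE 0.22, adjusted p = 0.582) for Ikzf5. The limma calls were 0.0274% of genes, again Eif2s3y, Xist and Tsix, with 1018 at an unadjusted p under 0.05. With the granulocyte-rich ZnF1 library of fraction C left out, the Ikzf3 estimate was -2.33 with an adjusted p of 0.0334 in limma, where 0.146% of all genes passed, and without the ZnF1 library of fraction B it was -1.46 with 0.0064, where 37.6% passed. In each case the ZnF1 arm is then 1 library. Over the 15 alternatives the adjusted p of Ikzf3 in limma ran from 0.0064 to 1.

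The part of the granulocyte and erythroid markers in the values of that library was not tested, but a rescaling on B-lineage RNA shows how far they depend on the yardstick. With the B-lineage scaling, Ikzf3 stood at 34.3 RPKM in ZnF1 and 58.8 in wt in fraction C, and at 9.84 and 60.5 in fraction B. Ikzf3 was still the lowest in ZnF1 in both fractions, but the difference in fraction C fell below 2-fold, to log2 -0.76. Ikzf1 came to 303.6 RPKM on this scale in the ZnF1 library of fraction C, against 193.8 in wt and 347.0 in ZnF4.

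Between the mutants, Ikzf3 was 21.99-fold higher in ZnF4 than in ZnF1 in fraction B and 11.2-fold higher in fraction C, and Ikzf1 was 2.37-fold and 2.75-fold higher. All 4 mutant libraries lack Xist, so the sex difference described above does not enter this comparison. At least 2-fold higher were 2 of the 3 tested members in each fraction, against 4.95% of all tested genes in fraction B, 7.41% in fraction C and 3.11% in both. Only 4 genes in fraction B and 17 in fraction C were at least as far apart in this direction as Ikzf3, itself included. Ikzf5 was 1.21-fold and 1.56-fold higher. With the B-lineage scaling Ikzf1 came to log2 0.95 in fraction B and 0.19 in fraction C, below 2-fold, and Ikzf5 was lower in fraction C.

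Ikzf3 rose in ZnF4 relative to ZnF1 in the limma model, the only member to pass in any comparison (log2 3.97, SE 0.29, adjusted p = 0.0359, higher in 2 of 2 fractions), where 1.82% of tested genes passed. Ikzf1 had an estimate of 1.35 (SE 0.23, adjusted p = 0.067) and Ikzf5 of 0.46 (SE 0.22, adjusted p = 0.287) in limma. The Ikzf3 call held in 11 of 15 alternatives, over which its estimate ran from log2 3.20 to 4.41. Those that leave out a library keep only 1 of that genotype. In limma the call was lost without the filter on low values (adjusted p = 0.148) and with the B-lineage scaling (log2 3.20, adjusted p = 0.0638). On that scale no gene passed in this comparison, so that loss is not particular to Ikzf3. It was also lost without the ZnF4 library of fraction B (log2 3.68) or that of fraction C (log2 4.265).

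**Figure D3:**
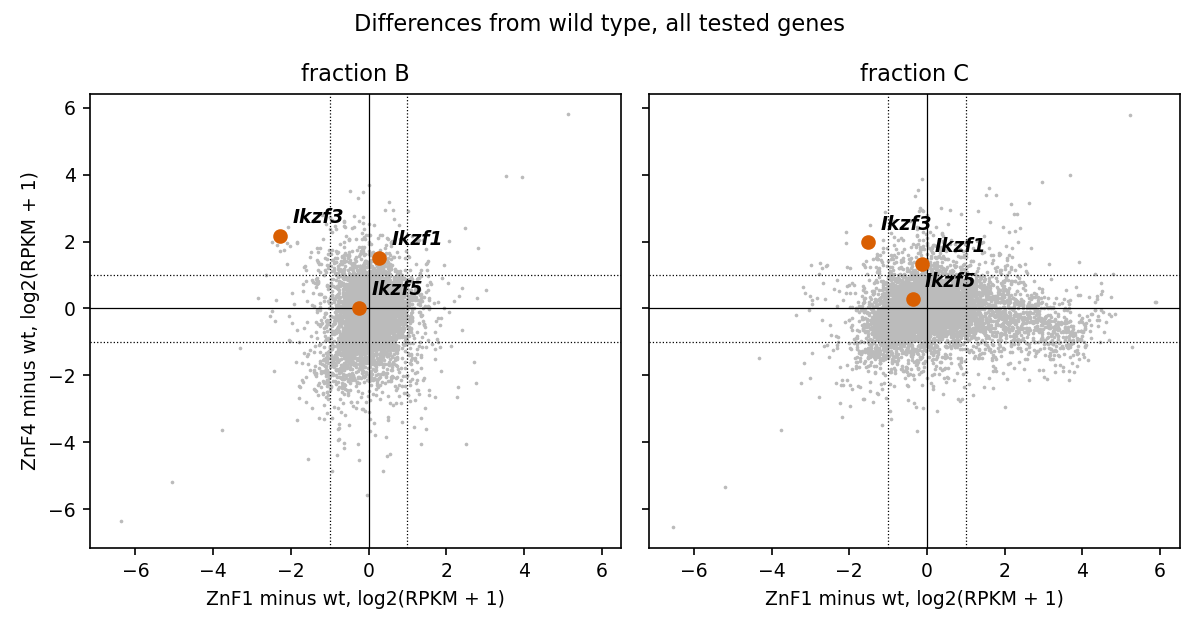
Difference from wt on the log2(RPKM + 1) scale in ZnF1 (horizontal) and ZnF4 (vertical) for 10943 genes (grey) and the 3 tested members (orange), by fraction; dotted lines mark 2-fold, and both axes share the wt library of the fraction. Ikzf3 lies low for ZnF1 and high for ZnF4 in both panels, and Ikzf1 lies high for ZnF4 alone.

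Ikzf3 was at least 2-fold lower in ZnF1 and at least 2-fold higher in ZnF4 than wt in both fractions, as were 21 of the 10943 tested genes (0.192%). With the B-lineage scaling it was not, because ZnF1 against wt in fraction C was then log2 -0.76. Both comparisons share the wt libraries, and no other member did so.

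From fraction B to C the 3 tested members stayed within 1.43-fold as deposited. None was 2-fold apart in any genotype. At least 2-fold higher in C were, as deposited, 0.338% of genes in wt, 10.1% in ZnF1 and 2.76% in ZnF4, and at least 2-fold lower were 1.01%, 4.16% and 0.585%. With the B-lineage scaling Ikzf1 (log2 1.01) and Ikzf3 (log2 1.70) were at least 2-fold higher in fraction C of ZnF1, but so were 48.7% of all genes, whose median was log2 0.99. Ikzf1 was 1.13-fold higher in fraction C in wt, 1.18-fold lower in ZnF1 and 1.02-fold lower in ZnF4. Ikzf3 was 1.20-fold lower in wt, 1.43-fold higher in ZnF1 and 1.37-fold lower in ZnF4. In limma the estimates were log2 -0.03 for Ikzf1, -0.07 for Ikzf3 and -0.04 for Ikzf5, and 0 genes passed (0% of those tested; 511 at an unadjusted p under 0.05 in limma, 11 passed without the filter on low values).

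The balance between the 2 abundant members differed between the genotypes, and a ratio within a library does not depend on how that library was scaled. Such a ratio can still depend on which cells the library holds, and their part in it was not tested. Ikzf3 divided by Ikzf1 was 0.412, 0.0656 and 0.655 for wt, ZnF1 and ZnF4 of fraction B, then 0.303, 0.113 and 0.483 for fraction C. The order was ZnF1, wt, ZnF4 in both fractions, with 1 library behind each value. Summed over the family, the level was 217.8 and 225.5 RPKM in wt, 197.5 and 175.6 in ZnF1, and 719.4 and 636.4 in ZnF4 (fractions B and C). Ikzf1 made up 69.0% and 75.1% of that sum in wt, 91.9% and 87.8% in ZnF1, and 60.0% and 66.8% in ZnF4. Ikzf1 exceeded Ikzf5 between 32.7-fold and 91.8-fold, lowest in the wt and highest in the ZnF4 library of fraction B.

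**Figure D4:**
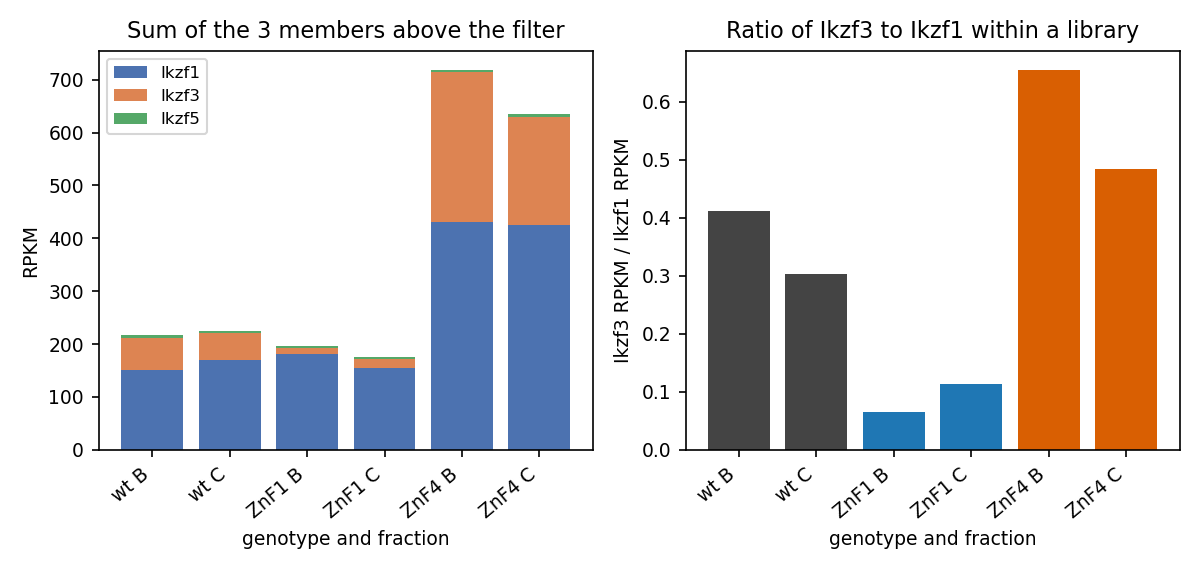
Left, RPKM of Ikzf1, Ikzf3 and Ikzf5 stacked for each library; right, Ikzf3 RPKM divided by Ikzf1 RPKM in the same library, with 1 library per bar and no error bars. The ratio runs from 0.0656 (ZnF1, fraction B) to 0.655 (ZnF4, fraction B).

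The genes whose profile over the 6 libraries lay nearest to that of Ikzf3, by Euclidean distance of centred log2(RPKM + 1) values, were Egfl6 (distance 0.605, r = 0.99), Hdac9 (0.772), Srpk3 (0.791), Scd1 (0.958) and Myo1e (0.992). Hdac9 encodes a class IIa histone deacetylase, Scd1 a fatty acid desaturase and Srpk3 a kinase. Egfl6 measured 6.7, 0.6 and 24.5 RPKM among the fraction B libraries and 6.2, 0.7 and 26.9 among those of fraction C. The nearest to the mirror image of Ikzf3 included Muc13, Trf, Gimap3 and Art4. Muc13, a mucin, measured 2.3, 20.7 and 0.1 RPKM for fraction B, then 1.7, 11.4 and 0.1 for fraction C.

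For Ikzf1 the nearest were Golgb1 (distance 0.26, r = 0.99), 1810013D10Rik, Pold4, Auts2 and Ciita, the master activator of MHC class II genes, which measured 4.5, 4.3 and 13.7 RPKM for fraction B and 4.0, 5.0 and 13.6 for fraction C. The mirror genes were Oasl1, Ggnbp1, Pde4a, Por and Calcrl. Ikzf1 and Ikzf3 themselves lay 2.81 apart (r = 0.83), and by nearness Ikzf3 ranked 9585th of 10942 genes for Ikzf1, while Ikzf1 ranked 288th for Ikzf3. These are descriptions over 6 libraries that share genotype and fraction. Euclidean distance also grows with the size of a gene's differences, so it does not rank by shape alone. From the lowest to the highest library Ikzf3 differed 23.8-fold and Ikzf1 2.87-fold. Ranking by r instead kept 1 of the 5 nearest genes of Ikzf1 and 0 of those of Ikzf3.

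Ikaros proteins act with chromatin complexes, and a list of 18 genes of the NuRD, Sin3, CtBP and SWI/SNF complexes was followed beside the family. All 18 were tested and 0 passed in limma in any of the 4 comparisons (1 at an unadjusted p under 0.05 in ZnF4 minus wt, 0 in ZnF1 minus wt, 1 in ZnF4 minus ZnF1 and 1 in fraction C minus B). Of all genes 17.6%, 9.3%, 22.7% and 4.67% had such a p in these comparisons, and 0.0274%, 0.0274%, 1.82% and 0% passed. Their median estimate was log2 -0.16 in ZnF4 minus wt (all genes -0.07), -0.06 in ZnF1 minus wt (all genes -0.03) and -0.14 in ZnF4 minus ZnF1 (all genes -0.04). Mta3, a NuRD subunit, measured 21.8, 36.7 and 9.2 RPKM for fraction B and 21.1, 20.2 and 9.6 for fraction C. In both fractions ZnF4 was below wt by at least 2-fold, as for 4.73% of all genes, and below ZnF1, as for 5.45%. The difference from ZnF1 in fraction C lay at the threshold itself. The limma adjusted p was 0.175 against wt (log2 -1.11, SE 0.28) and 0.0816 against ZnF1 (log2 -1.44, SE 0.28). Leaving out either ZnF1 library, Mta3 passed in limma in both comparisons, as did 30.8% (without that of fraction B) and 31.6% (fraction C) of all genes against wt, and 37.5% and 24.6% against ZnF1.

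Ikaros protein is also controlled by phosphorylation through casein kinase 2, by protein phosphatase 1 and, with drugs of the thalidomide class, by the cereblon ubiquitin ligase. Of 13 genes listed for these, 11 were tested and 0 passed in limma in any comparison (1, 0, 1 and 0 at an unadjusted p under 0.05, in the same order). Ppp1cc was under the filter, and the kinase Syk was not counted because the table lists it under the symbol Sykb. Those counts stand beside the same shares of all genes. The list median was log2 -0.24 in ZnF4 minus wt, -0.23 in ZnF1 minus wt and -0.17 in ZnF4 minus ZnF1, beside -0.07, -0.03 and -0.04 over all genes. Crbn, the substrate receptor cereblon, measured 14.4, 12.2 and 17.8 RPKM for fraction B and 17.2, 10.7 and 19.0 for fraction C, lowest in ZnF1 in both fractions (ZnF4 minus ZnF1 log2 0.64, SE 0.19, limma adjusted p = 0.153), an estimate that turned with the B-lineage scaling (log2 -0.096). On that scale Crbn was still lowest in ZnF1 in fraction B (10.1 RPKM against 14.1 in wt and 11.98 in ZnF4) and highest there in fraction C (21.1 against 19.7 and 15.5).

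Of 13 genes reported elsewhere as Ikaros targets, all tested, 1 passed in limma, in ZnF4 minus ZnF1, where 1.82% of all genes did. At an unadjusted p under 0.05 were 3 in ZnF4 minus wt, 2 in ZnF1 minus wt, 5 in ZnF4 minus ZnF1 and 3 in fraction C minus B, beside 17.6%, 9.3%, 22.7% and 4.67% of all genes. Dntt, the polymerase that adds nucleotides at V(D)J junctions, fell in ZnF4 relative to ZnF1 (log2 -4.32, SE 0.48, limma adjusted p = 0.0413). It measured 568.7, 739.4 and 18.7 RPKM for fraction B and 335.4, 281.2 and 25.7 for fraction C. The Dntt call held in 10 of 15 alternatives, over which its estimate ran from log2 -5.08 to -1.72. It was lost without either ZnF4 library, without the filter and with the transcript of lowest mean (log2 -1.72). The call was also lost with the B-lineage scaling, where no gene passed in this comparison. Rag2, a recombinase subunit, had log2 -1.52 (SE 0.23, limma adjusted p = 0.0602) in the same comparison, and Myc, a driver of growth, -2.92 (SE 0.34, adjusted p = 0.0896 in limma) in ZnF4 minus wt. Igll1, the surrogate light chain lambda5 whose promoter Ikaros is known to bind, measured 639.9, 1022.9 and 1049.9 RPKM for fraction B and 724.9, 475.5 and 1396.2 for fraction C, and did not pass (ZnF4 minus wt log2 0.83, SE 0.49, limma adjusted p = 0.442). The list median was log2 -0.69 in ZnF4 minus wt, 0.06 in ZnF1 minus wt and -0.77 in ZnF4 minus ZnF1, beside -0.07, -0.03 and -0.04 over all genes.

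Markers of other cells moved beside the family. The 6 NK markers summed to 2.5 and 8.8 RPKM in the ZnF4 libraries of fractions B and C against 39.6 to 98 in the other 4, with 4 and 1 of them at 0. The 4 plasmacytoid dendritic markers summed to 0.5 and 0.4 against 11.6 to 76.9, and the 6 T-cell markers to 3.7 and 4.7 against 9.4 to 35.7. Of the T-cell markers, Foxp3 hardly differed (3.0 and 3.7 RPKM in ZnF4, 3.5 to 4.1 in the other 4). The rest were lower in ZnF4, among them Cd4 (0.1 and 0.4 against 1.9 to 16.7). The 4 mature B markers summed to 106.4 and 53.1 RPKM in ZnF4 against 9.2 to 24.2. That sum rested on 2 of them, one being Cd40 (66.1 and 33.1 in ZnF4), and the other 2 were between 0.2 and 2.9 RPKM in every library, with the highest value in ZnF1 of fraction C. The 8 B-lineage markers summed to 3500.1 and 3429.3 RPKM in ZnF4 against 1343.6 to 3208.4. Of these, Rag1 in ZnF4 was below wt in both fractions, and Cd79a and Vpreb1 were below ZnF1 in fraction B. Granulocyte and monocyte (982.1 and 1688.4), erythroid (79.8 and 139.9) and progenitor (7.6 and 11.6) sums were the lowest of each fraction in ZnF4. Among their members, Hba-a1 and Kit in fraction C were not below wt. The part of the mix of cells in the ZnF4 values of Ikzf1 and Ikzf3 was not tested.

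Promoter windows, 250 bases before a RefSeq start on GRCm38.p6, were found for Ikzf1 (2 starts) and Ikzf5. The letters GGGAA, the core of the Ikaros recognition sequence, searched on both strands, occurred 0 times at the first Ikzf1 start, 2 times at the other and once at Ikzf5, while 56.2% of 32851 promoter windows held at least 1 and 21.2% at least 2. The longer TGGGAA occurred 0 times in these 3 windows and in 21.6% of all. The first Ikzf1 window (11685675 to 11685924), with 0 matches, lies before exon 1 of the measured transcript (11686213 to 11686468). The window of the other Ikzf1 start, chr11:11689927-11690176 on the plus strand, lies between that exon and exon 2, which begins at 11700205. It is thus not before the start of the measured transcript. It is shown because it held the 2 matches (here as TTCCC, the other strand), in capitals.
Ikzf1 promoter window: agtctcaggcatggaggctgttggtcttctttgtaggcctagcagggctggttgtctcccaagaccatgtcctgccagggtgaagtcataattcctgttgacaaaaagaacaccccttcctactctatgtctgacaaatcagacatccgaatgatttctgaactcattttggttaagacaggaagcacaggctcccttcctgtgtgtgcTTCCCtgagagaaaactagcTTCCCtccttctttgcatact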

How the data were processed

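RNA-seq values of 6 libraries, 1 per genotype and Hardy fraction, were used. The authors deposited RPKM for each RefSeq transcript, rounded to 0.1, per the file headers. The library kit was Illumina TruSeq, per the labels' protocols. TopHat, bedtools and mm9 are named without roles, per the submitters' processing notes. How reads were totalled, assigned by strand or shared is not given in the sources used here. Depth is thus unknown and counting intervals are not given. One entry of 26532 had no gene name and was left out, each gene was represented by its transcript of highest mean, and genes averaging 1 RPKM or more were tested (10943). Folds are log2(RPKM + 1) differences, which understate changes of low genes, and 2-fold was the threshold between single libraries. The test was limma 3.58.1 in R 4.3.3 (lmFit, eBayes with trend, two-sided, 2 residual degrees of freedom, Benjamini-Hochberg over all tested genes) and was tested on simulated data. The simulated libraries had independent noise and none stood apart. That check therefore does not cover genotype effects that differ between the fractions, from which the model takes its spread here. Alternatives changed the pseudocount, filter, scaling, transcript choice, trend and libraries. Named genes are the members, the 5 nearest and 5 mirror genes of Ikzf1 and Ikzf3, and from each list the 2 largest and 2 smallest estimates or any gene 2-fold apart in both fractions. Members and lists were chosen with earlier results of these data known. The annotation is of another build than mm9 and was used for exons, fingers and promoters only. A few genes in these lists are not reported here.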

Additional observations from a re-analysis of the deposited data

Results flagged for a closer look

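Opposite directions under the same contrast drew attention to the values below, each a difference between differences of single libraries on the log2(RPKM + 1) scale, and none of them was tested. Ikzf1 in ZnF1 against wt was 0.27 higher in fraction B and -0.14 in fraction C, which differ by 0.41. The same 4 libraries give the step from fraction B to C of Ikzf1, -0.23 in ZnF1 and 0.17 in wt, which differ by -0.41. The step of Ikzf1 was -0.02 in ZnF4, which differs from wt by -0.19.

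The step of Ikzf3 from fraction B to C was 0.51 in ZnF1, -0.26 in wt and -0.46 in ZnF4. ZnF1 thus differed from wt by 0.78, and ZnF4 from ZnF1 by -0.97. The ZnF1 library of fraction C enters both of these, and it is the library with the high granulocyte and erythroid marker sums. The step of Ikzf5 was 0.17 in ZnF4, -0.08 in wt and -0.20 in ZnF1, so that ZnF4 differed from wt by 0.25 and from ZnF1 by 0.36, at levels of 3.1 to 5.4 RPKM.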

How the results depend on the processing

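Directions held for the large differences and calls did not. Ikzf3 was above ZnF1 and above wt in ZnF4, and below wt in ZnF1, and Ikzf1 was above both in ZnF4, under each of the 15 alternatives run per genotype comparison. The number of genes called by limma in ZnF4 minus wt was 3, and became 5 with a pseudocount of 0.25, 6 with median ratio scaling, 6 without the trend, 0 with B-lineage scaling and 3494 in the wt and ZnF4 libraries alone. In ZnF1 minus wt it was 3, and became 5 without the trend, 0 with B-lineage scaling and 0 in the wt and ZnF1 libraries alone. In ZnF4 minus ZnF1 it was 199, and became 353 with median ratio scaling, 122 with the transcript of lowest mean and 0 with B-lineage scaling. Without the filter on low values the 22098 genes, 6443 of them at 0 in every library, gave 132, 102 and 97 calls in these 3 comparisons and 11 in fraction C minus B, of which 122, 97, 89 and 11 had a mean under 1 RPKM. Leaving out 1 library at a time gave 0 to 3453, 0 to 4116 and 0 to 4109 calls, and 0 in fraction C minus B. The highest count in each genotype comparison came without a ZnF1 library, where the remaining ZnF1 library is fitted exactly and is taken to vary as wt and ZnF4 do.

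B-lineage scaling moved the median of all genes by log2 -0.44 in ZnF4 minus wt, 0.26 in ZnF1 minus wt, -0.71 in ZnF4 minus ZnF1 and 0.53 in fraction C minus B (equal RPKM sums by 0.03, -0.19, 0.23 and -0.14), and the shifts of single members follow it: relative to the median, Ikzf1 was 1.42 and Ikzf3 2.08 higher in ZnF4 than wt on that scale, against 1.49 and 2.15 as deposited. On that scale Ikzf3 in ZnF4 minus ZnF1 had 3.20 and no longer passed, as also without the filter (3.97), whereas Ikzf1 passed there with median ratio scaling (1.36). With the wt and ZnF4 libraries alone Ikzf1 (1.42) and Ikzf3 (2.08) passed against wt. Equal RPKM sums turned Ikzf1 in ZnF1 minus wt to -0.15. B-lineage scaling turned Ikzf5 to -0.27 in ZnF4 minus wt and -0.18 in ZnF4 minus ZnF1, Crbn to -0.096 in ZnF4 minus ZnF1, and fraction C minus B to 0.56 (Ikzf1), 0.49 (Ikzf3) and 0.43 (Ikzf5).

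Between single libraries, B-lineage scaling took Ikzf1 under 2-fold in ZnF4 against wt (0.98 in fraction B, 0.84 in C) and against ZnF1 (0.95 and 0.19), and Ikzf3 in ZnF1 against wt in fraction C (-0.76). It turned Ikzf1 in ZnF1 against wt in fraction C to 0.65, and Ikzf5 to -0.40 and -0.13 in ZnF4 against wt, 0.26 in ZnF1 against wt in fraction C and -0.39 in ZnF4 against ZnF1 in fraction C. From B to C it gave Ikzf1 1.01 in ZnF1 and 0.26 in ZnF4, Ikzf3 1.70 in ZnF1, and Ikzf5 0.11 in wt and 0.81 in ZnF1. A pseudocount of 0.25, equal sums, median ratio scaling and the mean over transcripts changed no such call or direction of these 3 genes.

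Leaving out 1 library at a time, Ikzf1 ran from 1.27 to 1.57 in ZnF4 minus wt, -0.087 to 0.22 in ZnF1 minus wt, 1.20 to 1.51 in ZnF4 minus ZnF1 and -0.13 to 0.075 in fraction C minus B. Ikzf3 ran from 1.78 to 2.37, -2.33 to -1.46, 3.54 to 4.41 and -0.36 to 0.12, and Ikzf5 from -0.0039 to 0.30, -0.43 to -0.19, 0.31 to 0.61 and -0.14 to 0.044. Ranking by r kept 1 of the 5 nearest and 0 of the mirror genes of Ikzf1, and 0 and 0 of those of Ikzf3, while leaving out the ZnF1 library of fraction C kept 1 and 0 for Ikzf1 and 4 and 0 for Ikzf3. No paired analysis was possible because the labels number no replicates; libraries of one fraction share only the fraction term of the model. Depth is unknown, and steps of 0.1 RPKM limit Ikzf2 and Ikzf4.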
